A study of Mus musculus with 24 samples.

Results

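Ppara, which encodes the nuclear receptor PPAR alpha, and 8 genes of the fasting type that are known as its targets in liver were followed in isolated hepatocytes of young and old mice fed a normal or a high-fat diet. The genes were taken by symbol from the deposited count table and were Ppara, Creb3l3, Fgf21, Angptl4, Vnn1, Aldh3a2, Mgll, Pdk4 and Fabp1, which are 9 of its 55421 rows. All 9 passed the filter on low counts and were tested among 13583 genes.

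The 24 male mice fell into 4 groups of 6, each mouse giving 1 polyA RNA-seq library from hepatocytes isolated by a 2-step liver perfusion. Young mice were C57BL/6N animals aged 6 months on normal diet (YND) or high-fat diet (YHFD), and old mice were C57BL/6J animals aged 24 months on normal diet (OND) or high-fat diet (OHFD). The high-fat diet, TestDiet 58y1, carried 60% of its energy as fat, and both diets were eaten without restriction for 9 weeks, so that no group was fasted. The labels name a Teklad Global chow as the normal diet whereas the study's methods name a low-fat purified diet, and which of them these mice ate is not settled by the sources used here. The ages are those of the labels, and the paper gives other ages. Age and substrain changed together and cannot be told apart in any comparison of old with young mice. The labels give each library a batch, 1 or 2, without saying what the batch was, and each group held 3 mice of each, except that OND held 2 and 4. Totals ran from 9200332 to 22185069 counts per library.

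PPAR alpha is a transcription factor that is switched on by fatty acids. It binds DNA as a pair with a retinoid X receptor, at a repeat of the AGGTCA type whose copies are set apart by a single base. In the fasted liver it is known for turning on the genes that import fatty acids into mitochondria and peroxisomes, burn them and make ketone bodies, together with the hormone FGF21. Feeding on fat can also supply its ligands.

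RefSeq windows around the transcription start (GRCm38.p6, 250 bases before to 50 after) were at hand for 7 of the 9 genes, Ppara, Pdk4, Fgf21, Fabp1, Creb3l3, Aldh3a2 and Mgll; Angptl4 and Vnn1 are named only. Both strands were searched for AGGNCANAGGNCA, a repeat spaced by 1 base, for AGGTCANAGGTCA, its stricter form, which the first contains, and for the single copy AGGTCA, which lies within the stricter form and may lie within the looser one. The loose repeat was found in the window of Fabp1 alone among these genes, and in 125 of all 32851 windows (0.381%). The strict repeat was in none of the 7 genes' windows and in 13 of all windows (0.0396%), and the single copy was in those of Fabp1 and Creb3l3 and in 5340 of all windows (16.3%). The upstream bases of Fabp1 are shown for that repeat, in capitals, and those of Creb3l3 and Mgll because these genes differed with both diet and age below. They are given 5′ to 3′ on the gene's own strand, from RefSeq's GRCm38.p6 windows, without the bases inside the GENCODE gene.
Fabp1, chr6:71199629-71199826, plus strand: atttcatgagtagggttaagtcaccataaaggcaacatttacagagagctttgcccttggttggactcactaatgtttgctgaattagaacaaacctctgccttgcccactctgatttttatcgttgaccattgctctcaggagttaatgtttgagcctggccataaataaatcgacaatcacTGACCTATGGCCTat
Creb3l3, chr10:81098875-81099122, minus strand: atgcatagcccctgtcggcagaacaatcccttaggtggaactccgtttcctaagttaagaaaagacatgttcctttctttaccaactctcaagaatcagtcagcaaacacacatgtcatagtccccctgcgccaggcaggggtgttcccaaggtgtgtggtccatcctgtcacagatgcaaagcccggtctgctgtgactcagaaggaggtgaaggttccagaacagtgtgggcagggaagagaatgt
Mgll, chr6:88724162-88724411, plus strand: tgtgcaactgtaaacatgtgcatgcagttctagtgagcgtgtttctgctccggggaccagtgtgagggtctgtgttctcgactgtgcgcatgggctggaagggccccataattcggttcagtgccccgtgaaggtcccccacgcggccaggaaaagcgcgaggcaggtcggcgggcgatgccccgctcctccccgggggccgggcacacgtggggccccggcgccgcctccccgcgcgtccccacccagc
In the Fabp1 stretch the 13 bases in capitals read AGGCCATAGGTCA on the other strand and ran from 67 to 55 bases before the RefSeq start. The single copy of Creb3l3 lay in its other window, inside the gene. A match describes letters in these windows and is no measured binding.

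The table was first checked against cell type markers. Summed CPM (counts scaled to a common library size after TMM correction) of 7 hepatocyte markers ran from 89800 to 144239 in YND, 68356 to 129454 in YHFD, 43057 to 154957 in OND and 69452 to 131031 in OHFD, and 0 of the 7 passed the test in any diet or age comparison. Kupffer cell markers summed to between 1.21 and 72.6 CPM in YND and between 41.9 and 1156 CPM in OND. In YND they were at 1.21 to 4.18 CPM in batch 1 and 40.6 to 72.6 CPM in batch 2. In OND they were at 41.9 and 82.1 CPM in batch 1 and 54.7 to 1156 CPM in batch 2. Of the Kupffer markers 8 of 8 were higher in OND than in YND, as were 8 of 9 immune markers tested, where 7.26% of all genes were. OND replicate 4 had both the lowest hepatocyte sum, 43057 CPM, and the highest Kupffer sum, 1156 CPM, of the 24 libraries. Calls of the 9 genes and of the lists in comparisons with OND are given with and without it, but marker calls only with it. OND replicate 3 and OHFD replicates 4 and 6 also had high Kupffer sums, 766, 479 and 606 CPM. The remaining old mice had 41.9 to 119 CPM. Leaving out OND replicate 4 does not remove these libraries, which were left out only 1 at a time. In bulk RNA, fewer cells of a type and less RNA per cell cannot be told apart.

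Levels differed widely among the 9 genes. The deposited FPKM of these genes in YND were 0.941 to 1.82 times their CPM divided by the whole gene span in kilobases, introns included, and 0.0490 to 1.08 times their CPM divided by exon length, so levels were compared on the scale of CPM per kilobase of exon (GENCODE, all exons of a gene merged). On that scale the means in YND were 5836 ± 587 for Fabp1, the fatty acid binding protein of the hepatocyte cytosol, 94.2 ± 19.5 for Aldh3a2, 85.9 ± 7.11 for Creb3l3 and 35.0 ± 4.31 for Mgll (SD, n = 6). Vnn1, Ppara and Angptl4 followed at 24.0 ± 9.37, 19.9 ± 4.50 and 18.9 ± 12.8, and Pdk4 and Fgf21 at 6.34 ± 4.02 and 4.13 ± 1.76. Fabp1 was above all others, and Creb3l3 and Mgll did not overlap. All other neighbours in this order overlapped in range.

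**Figure D1:**
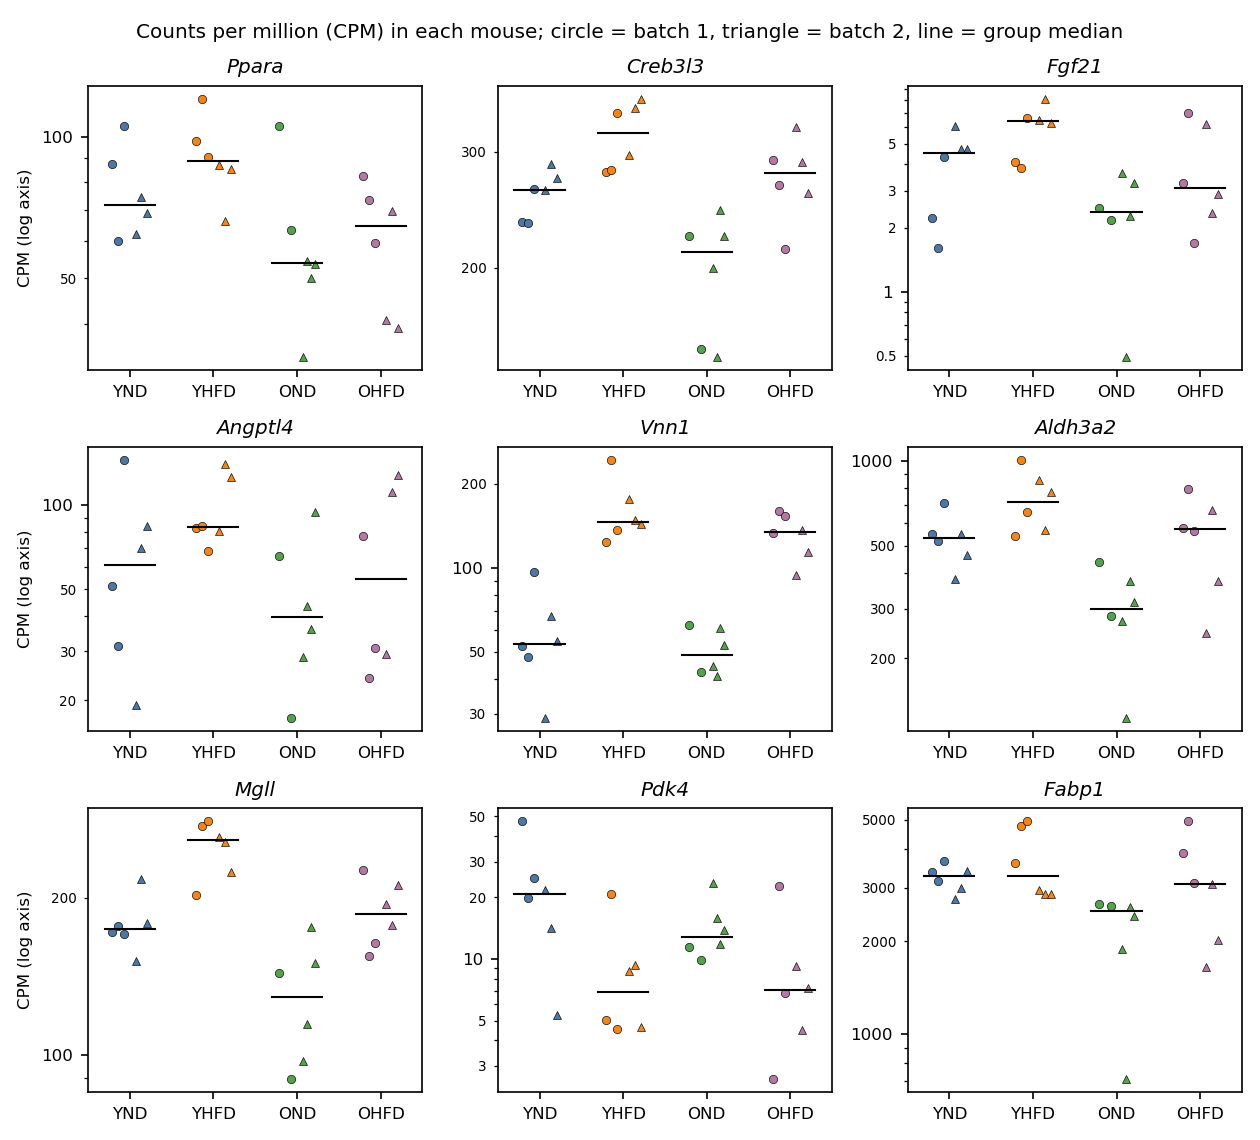
CPM of each of the 9 genes (log axis) in each mouse by group, with circles for batch 1, triangles for batch 2 and a line at the group median. Vnn1 separated the diets at both ages, with every YHFD mouse at 124 CPM or more and no YND mouse above 96.4 CPM.

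High-fat diet was compared with normal diet at each age to ask how the genes of the PPAR alpha program differed between the diets. The diets differed in more than fat, and the part of fat itself was not tested. Vnn1 was the gene that rose at both ages, Creb3l3 and Mgll rose in old mice, and Pdk4 was the member with the lowest fold change at either age. In young mice 8 of 9 log2 fold changes were above 0, with a median of 0.48 against 0.01 over all genes tested, and 1 of 9 was called higher, where 1.91% of all genes were called higher and 1.59% lower (edgeR quasi-likelihood test, Benjamini-Hochberg adjusted p under 0.05). In old mice 7 of 9 were above 0, with a median of 0.51 against -0.01 over all genes, and 3 of 9 were called higher, where 1.37% of all genes were called higher and 1.64% lower. The sets of mice in these comparisons do not overlap, but all groups share the model's estimate of the spread.

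Old and young mice were compared within each diet to ask how the same genes differed with age. Of the 9 log2 fold changes of OND against YND, 9 were below 0, with a median of -0.48 against 0.01 over all genes, and Creb3l3 and Mgll were called lower, where 1.24% of all genes were called lower and 7.26% higher. Without OND replicate 4, 0 of 9 were called, and the adjusted p became 0.119 for Creb3l3 and 0.108 for Mgll. Of OHFD against YHFD, again 9 of 9 were below 0, with a median of -0.41 against 0.01, and edgeR called 0 of them, where 0.420% of all genes were called lower and 1.82% higher. At an unadjusted p under 0.05 there were 2, and DESeq2 called 1, Ppara, while limma called 0. These age comparisons share their old and young groups with the diet comparisons.

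**Figure D2:**
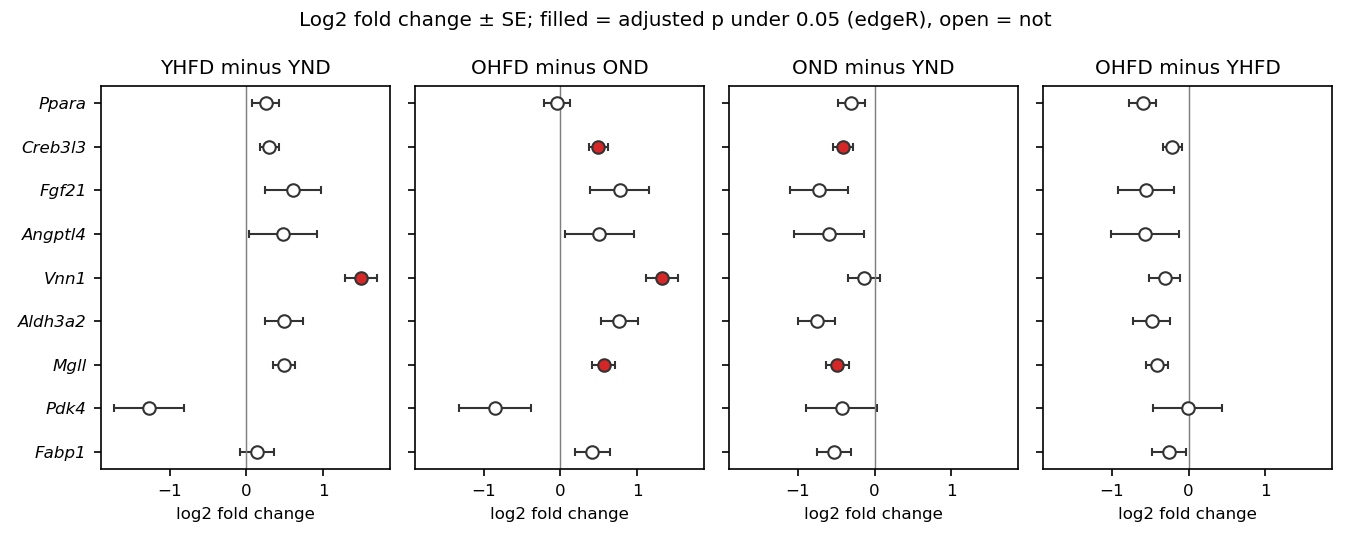
Log2 fold change of each gene with its standard error in the 4 comparisons, with a filled point where the adjusted p was under 0.05. All points lie below 0 in both panels of old against young mice, and Pdk4 lies far to the left in both diet panels.

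Ppara (chr15:85734983-85802819, plus strand, GRCm38) is the receptor itself. Its CPM were 60.0 at the lowest, 71.7 at the median and 105 at the highest in YND, 66.3, 88.9 and 121 in YHFD, 33.9, 53.9 and 106 in OND, and 39.2, 64.4 and 82.6 in OHFD. All 4 ranges overlapped, and the medians of the old groups were below those of the young. Diet moved the receptor transcript by 0.25 (SE 0.17, adjusted p = 0.439) on the log2 scale in young mice and by -0.05 (SE 0.17, adjusted p = 0.914) in old mice. The old-to-young difference was -0.30 (SE 0.17, adjusted p = 0.318) on normal diet, where it was 0.02 within batch 1 and -0.52 within batch 2. On high-fat diet it was -0.60 (SE 0.17, adjusted p = 0.0636), with -0.55 and -0.69 within the batches. That adjusted p fell to between 0.0218 and 0.0498 in 3 of 24 fits that left out 1 mouse, namely OND replicate 1, OHFD replicate 1 or OHFD replicate 5.

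Creb3l3 (chr10:81084324-81098874, minus strand) encodes CREB-H, a membrane-bound transcription factor of the endoplasmic reticulum that acts with PPAR alpha on Fgf21 and apolipoprotein genes. Its ranges were narrow, from 234 through a median of 263 to 288 CPM in YND and from 280 through 320 to 361 CPM in YHFD. In old mice it ran from 146 through 212 to 245 CPM in OND and from 213 through 278 to 327 CPM in OHFD. OND was the lowest group and overlapped both YND and OHFD at its upper end. The diet difference in old mice was 0.50 (SE 0.12, adjusted p = 0.0309), and 0.42 and 0.54 within the batches. It passed the test in 22 of 24 fits without 1 mouse, with adjusted p values of 0.0504 and 0.0904 in the fits that left out OND replicate 2 or OHFD replicate 4. In young mice the diet difference was 0.30 (SE 0.12, adjusted p = 0.159). The age difference on normal diet was -0.41 (SE 0.12, adjusted p = 0.0404). It was lost in 11 of 24 fits, those without any 1 of the 6 YND mice, YHFD replicates 1 or 5, or OND replicates 2, 3 or 4, at adjusted p values from 0.0540 to 0.135. On high-fat diet the age difference was -0.21 (SE 0.12, adjusted p = 0.322).

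Fgf21 (chr7:45613886-45615490, minus strand) encodes a hormone that the liver releases in fasting and on some diets. Its counts were low, between 6 and 134 per library, which limits its precision. Its CPM were 1.61 at the lowest, 4.50 at the median and 6.03 at the highest in YND, 3.84, 6.36 and 8.12 in YHFD, 0.49, 2.38 and 3.64 in OND, and 1.69, 3.08 and 6.99 in OHFD. High-fat groups had the higher median at each age, but every pair of groups that differed in diet alone overlapped. The diet differences of 0.61 (SE 0.36, adjusted p = 0.36) in young and 0.77 (SE 0.38, adjusted p = 0.236) in old mice did not pass, nor did the age differences of -0.72 (SE 0.37, adjusted p = 0.261) on normal and -0.56 (SE 0.37, adjusted p = 0.39) on high-fat diet. Without OND replicate 4, which was the lowest library at 0.49 CPM, the age difference on normal diet was -0.50 (adjusted p = 0.489). Leaving out 1 mouse moved the diet difference in old mice to between 0.45 and 0.95. It moved the age difference on high-fat diet to between -0.90 and -0.42.

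Angptl4 (chr17:33773750-33781830, minus strand) encodes a secreted inhibitor of lipoprotein lipase that rises with fatty acids and fasting in many tissues. It varied widely within groups, from 19.2 through 60.9 to 145 CPM in YND, from 68.3 through 83.6 to 141 CPM in YHFD, from 17.2 through 39.9 to 94.4 CPM in OND and from 24.0 through 54.3 to 128 CPM in OHFD. The lowest YHFD mouse was above the median of each other group, and all ranges overlapped. The differences were 0.48 (SE 0.45, adjusted p = 0.602) for diet in young mice, 0.51 (SE 0.45, adjusted p = 0.544) for diet in old mice, -0.59 (SE 0.46, adjusted p = 0.482) for age on normal diet and -0.57 (SE 0.45, adjusted p = 0.481) for age on high-fat diet. With no filter on low counts Angptl4 was called higher with diet in young mice (adjusted p = 0.0457) and lower with age on normal (adjusted p = 0.0031) and high-fat diet (adjusted p = 0.00534). Leaving out 1 mouse moved the diet difference in young mice to between 0.25, without YND replicate 4, and 0.97, without YND replicate 3. It moved the age difference on normal diet to between -0.89, without OND replicate 1, and -0.13, without YND replicate 3, and the diet difference in old mice to between 0.25, without OHFD replicate 6, and 0.78, without OND replicate 6. The age difference on high-fat diet moved to between -0.81, without OHFD replicate 6, and -0.40, without OHFD replicate 2. Within batch 1 the diet difference was 0.06 at each age, and within batch 2 it was 1.02 in young and 0.83 in old mice.

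Vnn1 (chr10:23894688-23905343, plus strand) encodes vanin 1, a pantetheinase anchored at the cell surface that releases cysteamine and vitamin B5. It ran from 28.8 through a median of 53.5 to 96.4 CPM in YND and from 124 through 146 to 244 CPM in YHFD. In old mice it ran from 40.9 through 48.9 to 62.4 CPM in OND and from 94.0 through 135 to 160 CPM in OHFD. The diets did not overlap at either age, while the old and young groups on the same diet did. The mean was 57.9 ± 22.6 CPM in YND against 162 ± 43.6 CPM in YHFD and 50.8 ± 9.47 CPM in OND against 132 ± 24.8 CPM in OHFD (SD, n = 6). The log2 fold change with diet was 1.50 (SE 0.21, adjusted p = 0.000224) in young mice and 1.33 (SE 0.21, adjusted p = 0.0016) in old mice. In each of the 24 fits without 1 mouse Vnn1 stayed called at both ages, and the young value ranged from 1.36 to 1.67. Within batches 1 and 2 it was 1.36 and 1.66 in young mice and 1.46 and 1.21 in old mice.

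The effect of diet on Vnn1 was 0.17 lower in old than in young mice on the log2 scale by the interaction term (-0.17, SE 0.29, adjusted p = 0.885). Age differences of Vnn1 were -0.14 (SE 0.21, adjusted p = 0.749) on normal diet and -0.31 (SE 0.20, adjusted p = 0.385) on high-fat diet. For the 9 genes together, the interaction called 0, and 0% of all genes tested, with 0 of the 9 and 1247 of all genes at an unadjusted p under 0.05. DESeq2 called 0 of the 9 and 4 genes in all, and limma on FPKM called 0.

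Aldh3a2 (chr11:61223417-61267464, minus strand) encodes the fatty aldehyde dehydrogenase, which turns long-chain aldehydes into fatty acids. Its CPM were 381 at the lowest, 534 at the median and 711 at the highest in YND, 541, 716 and 1007 in YHFD, 123, 300 and 439 in OND, and 247, 572 and 794 in OHFD. The OND group held the lowest value and the lowest median, and overlapped YND between 381 and 439 CPM. The diet differences were 0.49 (SE 0.24, adjusted p = 0.247) in young and 0.77 (SE 0.25, adjusted p = 0.0761) in old mice. The latter passed the test in the fit without OHFD replicate 4, at an adjusted p of 0.0350. The age difference on normal diet was -0.76 (SE 0.24, adjusted p = 0.0547). It passed without OND replicate 1 or 5 or OHFD replicate 2 or 4, at adjusted p values from 0.0282 to 0.0478, and was -0.60 (adjusted p = 0.126) without OND replicate 4. On high-fat diet the age difference was -0.48 (SE 0.24, adjusted p = 0.258).

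Mgll (chr6:88724412-88828360, plus strand) encodes monoacylglycerol lipase, which frees the last fatty acid of a broken-down triglyceride. The annotation places 5 predicted genes over it, and reads there could have been counted to either or to none. It ran from 151 through a median of 174 to 218 CPM in YND, from 202 through 259 to 281 CPM in YHFD, from 89.5 through 129 to 176 CPM in OND and from 155 through 186 to 226 CPM in OHFD. At each age the high-fat group had the higher median and overlapped the normal-diet group at its lower end. Diet raised it by 0.57 (SE 0.15, adjusted p = 0.036) in old mice. That call was lost in 5 of 24 fits, those without OND replicates 1, 2 or 3 or OHFD replicates 1 or 6, at adjusted p values from 0.0528 to 0.0994. In young mice the difference was 0.49 (SE 0.15, adjusted p = 0.0599), and it passed in 7 of 24 fits, those without OND replicates 2, 4 or 5 or OHFD replicates 2, 3, 4 or 5, at adjusted p values from 0.0366 to 0.0480. Mgll was lower in OND than in YND by -0.48 (SE 0.15, adjusted p = 0.0424). This was lost in 10 of 24 fits, those without YND replicates 1, 2, 3, 5 or 6, YHFD replicates 4 or 5, or OND replicates 2, 3 or 4, at adjusted p values from 0.0507 to 0.135. On high-fat diet the age difference was -0.41 (SE 0.15, adjusted p = 0.123).

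Pdk4 (chr6:5483351-5496309, minus strand) encodes a pyruvate dehydrogenase kinase, which stops glucose carbon from entering the citric acid cycle when fat is burned. Its log2 fold changes with diet were below 0 at both ages, where those of the other 7 targets were above 0. Its CPM were 5.30 at the lowest, 20.9 at the median and 47.4 at the highest in YND, 4.57, 6.89 and 20.9 in YHFD, 9.93, 12.9 and 23.6 in OND, and 2.57, 7.02 and 22.7 in OHFD. The high-fat medians were the lower at each age, and a single mouse in each high-fat group, replicate 2 in both, stood high at 20.9 and 22.7 CPM, while the others of these groups were at 9.33 CPM or less. The diet differences were -1.27 (SE 0.45, adjusted p = 0.104) in young and -0.86 (SE 0.47, adjusted p = 0.288) in old mice. The first passed without YHFD replicate 2, at an adjusted p of 0.0487. With no filter on low counts Pdk4 was called lower at both ages, at adjusted p values of 9.77e-10 in young and 0.000316 in old mice. Within batches 1 and 2 the young difference was -1.59 and -0.84 and the old difference -0.06 and -1.20, so that in old mice it was near 0 in batch 1. The age difference on normal diet was -0.43 (SE 0.46, adjusted p = 0.638), and its batch values, -1.50 and 0.24, differed in sign. On high-fat diet it was -0.01 (adjusted p = 0.991).

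Fabp1 (chr6:71199827-71205023, plus strand) encodes the liver fatty acid binding protein, which carries fatty acids through the cytosol and to the nucleus. Its CPM were 2762 at the lowest, 3273 at the median and 3664 at the highest in YND, 2853, 3271 and 4948 in YHFD, 708, 2509 and 2661 in OND, and 1649, 3090 and 4953 in OHFD. No OND mouse reached the lowest YND mouse, and the other pairs of groups that differed in age or diet alone overlapped. The differences were 0.14 (SE 0.22, adjusted p = 0.785) for diet in young mice, 0.42 (SE 0.23, adjusted p = 0.281) for diet in old mice, -0.53 (SE 0.22, adjusted p = 0.154) for age on normal diet and -0.25 (SE 0.22, adjusted p = 0.539) for age on high-fat diet. Without OND replicate 4, at 708 CPM, the age difference on normal diet was -0.35 (adjusted p = 0.286). Fabp1 thus had the highest level of the 9 genes and passed none of these tests.

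Old mice on high-fat diet were also set against young mice on normal diet, the pair furthest apart in age and diet, where 17.3% of all genes were called higher and 12.9% lower. Of the 9 genes, Vnn1 was higher by 1.19 (SE 0.20, adjusted p = 0.000441) and Pdk4 lower by -1.29 (SE 0.46, adjusted p = 0.0359). The median over the 9 was 0.01 against 0.04 over all genes, with 5 values above 0 and 4 below, of which those of Fgf21, Angptl4, Fabp1 and Aldh3a2 changed sign under some alternatives. Vnn1 was called in each of the 24 fits without 1 mouse. Pdk4 was lost in 8 of them, those without YND replicates 1, 3 or 4 or OHFD replicates 1, 3, 4, 5 or 6, at adjusted p values from 0.0514 to 0.107. With 17.3% of all genes called higher and 12.9% lower, 1 of 9 in each direction is no more than the background. Ppara differed by -0.35 (SE 0.17, adjusted p = 0.127).

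The markers that moved with these comparisons were as follows. In the age comparison on normal diet, where Creb3l3 and Mgll were lower, immune markers summed to between 1.95 and 30.7 CPM in YND and between 31.2 and 564 CPM in OND. There 5 of 7 stellate and 3 of 7 endothelial markers were higher and 1 of 3 red cell markers was lower. Of all genes 7.26% were higher and 1.24% lower. In the diet comparisons, adipocyte markers summed to between 0.69 and 9.46 CPM in YND against 29.2 to 111 CPM in YHFD, and to between 1.69 and 3.58 CPM in OND against 9.90 to 144 CPM in OHFD. Of 6 adipocyte markers, 1 was tested, Cfd, and was higher on high-fat diet at both ages. Of the markers not tested, 2 were at 0 in every library, and the others had counts too low for the test. With diet in young mice 2 of 9 immune, 1 of 8 Kupffer, 1 of 7 endothelial, 1 of 7 stellate and 2 of 3 red cell markers tested were higher too. Of all genes 1.91% were higher there. The summed red cell markers nonetheless had a lower median in YHFD, 95.5 CPM, than in YND, 126 CPM. The immune sum had a median of 11.1 CPM in YND and 62.4 CPM in YHFD. With diet in old mice no other marker list had a gene called. With age on high-fat diet 1 of 9 immune markers was higher, where 1.82% of all genes were. The part of these markers in the results was not tested.

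The partners of the receptor were followed in a list of 18 genes for PPAR receptors, retinoid X receptors and coregulators, all tested. On high-fat diet in young mice, where 1.91% of all genes were called higher and 1.59% lower, 0 were higher and 1 lower. That was Ppard, the gene for the related receptor PPAR delta, which fell by 1.91 on the log2 scale (SE 0.47, adjusted p = 0.0264), from 4.28 through 14.8 to 27.2 CPM in YND to between 2.77 and 5.04 CPM in YHFD. Its difference in old mice was -0.98 (adjusted p = 0.217). In old mice, where 1.37% of all genes were called higher, the diet comparison called 1 higher, Rxrg, a retinoid X receptor (0.71, adjusted p = 0.0415). Without OND replicate 4 it called 0. Pparg, the third PPAR gene, differed by -0.51 (adjusted p = 0.145) in young and 0.03 (adjusted p = 0.963) in old mice. With age, edgeR, DESeq2 and limma called 0 of 18 on normal diet, with 1 at an unadjusted p under 0.05. On high-fat diet, where 1.82% of all genes were called higher with age, 1 of 18 was higher. It was Crebbp, the acetyltransferase CBP (0.77, adjusted p = 0.0452). In OHFD against YND 3 of 18 were higher and 4 lower, beside 17.3% and 12.9% of all genes, and limma called 0. Among them were Ppargc1b, a coactivator (1.29, adjusted p = 0.00358), and Ppard (-1.83, adjusted p = 0.00688). The list's medians stayed between -0.14 and 0.03 in the 4 diet and age comparisons.

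The classical targets of PPAR alpha in fat oxidation were a list of 29 genes, 28 of them in the table and tested. High-fat diet raised 1 of 28 in young mice, near the 1.91% of all genes called higher. That was Cpt1a, the gate for long-chain fatty acids into mitochondria (0.79, SE 0.18, adjusted p = 0.0201). It rose from 219 through 272 to 337 CPM in YND to between 436 and 526 CPM in YHFD. The diet raised 3 of 28 in old mice, where 1.37% of all genes were called higher. These were Decr1 (0.93, adjusted p = 0.0231) and Eci1 (0.95, adjusted p = 0.0231), which prepare unsaturated fatty acids for oxidation, and Pex11a (0.66, adjusted p = 0.0324), which acts in the division of peroxisomes. The median over the list was 0.25 in young and 0.38 in old mice. With age on normal diet 5 of 28 fell, where 1.24% of all genes did, and none was called higher, where 7.26% were. Those that fell were led by Pex11a (-0.81, SE 0.17, adjusted p = 0.00485), Acsl1, which activates fatty acids with coenzyme A (-0.77, adjusted p = 0.016), and Cpt2, the partner of Cpt1a at the inner membrane (-0.60, adjusted p = 0.0209). The list median was -0.47. Only 2 of 28 were called lower without OND replicate 4, Pex11a (adjusted p = 0.0154) and Acsl1 (adjusted p = 0.0149), the call of Cpt2 was lost (-0.50, adjusted p = 0.0624) and the median was -0.38. The 3 diet calls in old mice remained without it. On high-fat diet 2 of 28 were lower with age, where 0.420% of all genes were. Among them was Crat, the carnitine acetyltransferase (-0.77, adjusted p = 0.0457), and the list median was -0.35. In OHFD against YND 3 of 28 were lower, near the 12.9% of all genes called lower there, namely Acadvl (-0.48), Crat (-0.58) and Hadha (-0.54), at adjusted p values of 0.0343, 0.0362 and 0.0369.

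Other targets of the receptor were a list of 36 genes, 34 of them tested. In young mice, where 1.91% of all genes were called higher, high-fat diet raised 8 of 34 and lowered 0, with a median of 0.68. Among them were Plin4, a lipid droplet coat protein (1.46, SE 0.31, adjusted p = 0.0106), and Cd36, a fatty acid transporter (1.20, SE 0.26, adjusted p = 0.0149). The smallest adjusted p was that of Krt23, a keratin, which was near 0 outside YHFD, at 0 to 0.99 CPM in YND, 0 to 0.21 CPM in OND and 0 to 0.94 CPM in OHFD against 1.58 to 8.12 CPM in YHFD. Only YHFD lay clear of such low counts, so the calls of Krt23 against YHFD are no support for the list and no fold is given. The 8 of 34 above, the 2 called lower with age on high-fat diet below and the list medians include Krt23. In old mice, where 1.37% of all genes were called higher, high-fat diet raised 7 and lowered 0, with a median of 0.66. The 7 were led by Slc27a2, which imports and activates fatty acids (0.77, SE 0.15, adjusted p = 0.00761), Cyp4a10, a fatty acid omega-hydroxylase (1.92, SE 0.44, adjusted p = 0.0218), and Slc27a1 (1.35, SE 0.32, adjusted p = 0.0245). Slc27a2 ran from 443 through 870 to 989 CPM in OND and from 1079 through 1433 to 1584 CPM in OHFD, without overlap. It raised 6, these 3 among them, without OND replicate 4. With age on normal diet 2 of 34 were higher, no more than the background of 7.26%, and 6 were lower, where 1.24% of all genes were, with a median of -0.35. Without OND replicate 4 the counts were 1 and 4 and the median -0.31. Cidea, a lipid droplet protein, was higher (2.71, adjusted p = 0.00293, and 0.00121 without that library), and Acot1, a thioesterase (-1.38, adjusted p = 0.014, and 0.0290 without it), and Agpat2, which builds glycerolipids (-0.55, adjusted p = 0.0161, and 0.0486 without it), were lower. On high-fat diet 1 rose with age, Cidea (2.38, adjusted p = 0.00874), near the 1.82% of all genes called higher. There 2 were called lower, where 0.420% of all genes were, with a list median of -0.40. They were Krt23, which was near 0 in OHFD, and Gpd1, the glycerol 3-phosphate dehydrogenase (-0.73, adjusted p = 0.0414). In OHFD against YND 9 of 34 were higher and 2 lower, beside 17.3% and 12.9% of all genes, so that the lower count was under the background. The smallest adjusted p were those of Cidea (3.75), Gpd1 (-0.88) and Plin4 (1.41), at 3.53e-05, 0.00181 and 0.00219. Cyp4a10 and Acot1 have close copies in the genome, and reads could have been split between them.

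**Figure D3:**
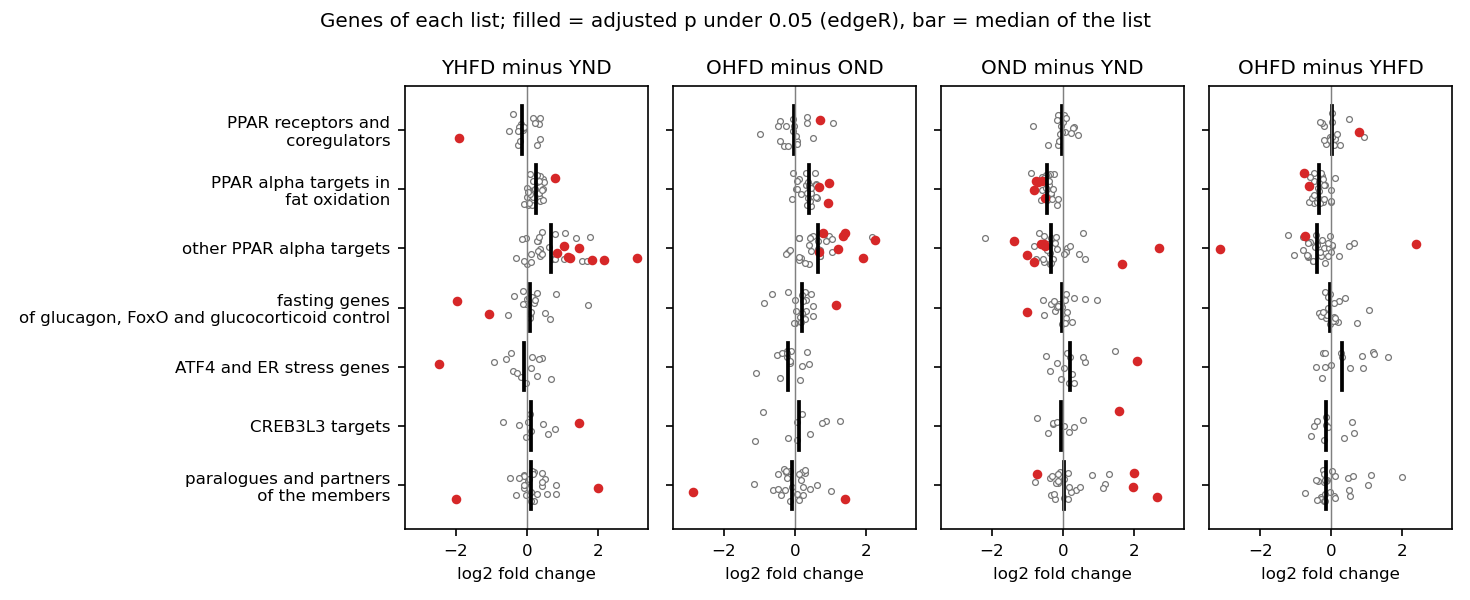
Log2 fold changes of the genes of the 7 lists in the 4 comparisons, with a filled point for each gene at an adjusted p under 0.05 and a bar at the median of the list. The fat oxidation list and the other PPAR alpha targets have medians from 0.25 to 0.68 with diet and from -0.47 to -0.35 with age.

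Fasting is also signalled through glucagon, FoxO proteins and glucocorticoids, for which a list of 21 genes was tested. In young mice 2 of 21 fell on high-fat diet, where 1.59% of all genes did. They were Igfbp1, an insulin-repressed binding protein (-1.95, SE 0.47, adjusted p = 0.0246), and Irs2, an insulin receptor substrate (-1.06, SE 0.26, adjusted p = 0.0251). In old mice, where 1.37% of all genes were called higher, 1 rose, Tsc22d3, the glucocorticoid-induced gene GILZ (1.15, SE 0.25, adjusted p = 0.0159, and 0.0131 without OND replicate 4). With age on normal diet, where 1.24% of all genes were called lower, 1 fell, G6pc, the last enzyme of glucose release (-1.01, SE 0.29, adjusted p = 0.0311). Without OND replicate 4 this call was lost. On high-fat diet edgeR, DESeq2 and limma called 0 of 21 with age, with 3 at an unadjusted p under 0.05. In OHFD against YND 2 of 21 were higher and 2 lower, both under the background of 17.3% and 12.9% of all genes. Those with the smallest adjusted p were Irs2 (-0.97, adjusted p = 0.00781), Cebpb, a transcription factor (0.81, adjusted p = 0.0169), and Tat, which breaks down tyrosine (-0.78, adjusted p = 0.0179). The medians of the list were 0.10 and 0.21 for diet and -0.03 and -0.02 for age.

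ATF4 and endoplasmic reticulum stress, another route to Fgf21, were followed in 15 genes, 14 of them tested. In young mice, where 1.59% of all genes were called lower, 1 of 14 fell with diet, Asns, the asparagine synthetase (-2.48, SE 0.57, adjusted p = 0.0195). With age on normal diet 1 rose, Atf3, a stress transcription factor (2.06, SE 0.61, adjusted p = 0.0344), which was lost without OND replicate 4. That 1 of 14 is near the 7.26% of all genes called higher. In old mice edgeR, DESeq2 and limma called 0 of 14 with diet, and 0 had an unadjusted p under 0.05. With age on high-fat diet edgeR and limma called 0 and DESeq2 1, with 3 at an unadjusted p under 0.05. Of the 10 targets of CREB3L3, which include Fgf21 itself, 1 rose with diet in young mice, where 1.91% of all genes did. It was Apoa4 (1.46, SE 0.39, adjusted p = 0.039). With age on normal diet 1 of 10 was higher, near the 7.26% of all genes. It was Apcs, the serum amyloid P gene (1.58, SE 0.44, adjusted p = 0.027), at between 98.4 and 948 CPM in OND, and this call was lost without OND replicate 4. In OHFD against YND 2 of 10 were higher and 1 lower, near the 17.3% and 12.9% of all genes, namely Cidec, a lipid droplet protein (1.42, adjusted p = 0.00429), Apoa1 (0.59, adjusted p = 0.0318) and Hamp, the iron hormone hepcidin (-1.07, adjusted p = 0.0428). With diet in old mice, where Creb3l3 itself was higher, edgeR and limma called 0 of its 10 targets and DESeq2 1, with 5 at an unadjusted p under 0.05. Without OND replicate 4 edgeR called 1 of them higher. With age on high-fat diet edgeR and limma called 0 and DESeq2 1, with 1 at an unadjusted p under 0.05.

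Paralogues and partners of the 9 genes were a list of 30, 27 of them tested. Among fatty acid binding proteins, Fabp5, the epidermal form, fell with diet by 2.00 (SE 0.49, adjusted p = 0.0255) in young mice and by 2.87 (SE 0.49, adjusted p = 0.00346) in old mice, and was higher with age on normal diet (1.97, SE 0.46, adjusted p = 0.00958). It ran from 28.5 to 182 CPM in OND and from 7.33 to 32.9 CPM in OHFD. Fabp2, the intestinal form, rose with diet in old mice (1.41, SE 0.28, adjusted p = 0.00861), and Fabp4, the form of adipocytes and macrophages, rose with diet in young mice (1.99, SE 0.55, adjusted p = 0.0455) and with age on normal diet (1.99, SE 0.56, adjusted p = 0.0261). In OHFD against YND, Fabp4 was higher by 3.01 (adjusted p = 0.000716), as were Lpl, the lipoprotein lipase that ANGPTL4 inhibits (2.81, adjusted p = 0.00247), and Creb3 (0.30, adjusted p = 0.0437). With age on normal diet Lpl rose (2.64, adjusted p = 0.00962), and Abhd6, another monoacylglycerol lipase, fell (-0.74, adjusted p = 0.00362). In all, 3 of 27 were higher and 1 lower in that comparison, where 7.26% and 1.24% of all genes were, so that the higher count was near the background. The call of Fabp4 was lost without OND replicate 4 (1.29, adjusted p = 0.142), while Fabp5, Lpl and Abhd6 had adjusted p values of 0.0337, 0.0174 and 0.0104. The diet calls of Fabp5 and Fabp2 in old mice had 0.00524 and 0.00626 without OND replicate 4. That diet comparison called 1 of 27 higher and 1 lower with this library, and 3 higher and 1 lower without it. The 3 of 27 higher in OHFD against YND were below the 17.3% of all genes. With age on high-fat diet edgeR and limma called 0 and DESeq2 1, with 4 at an unadjusted p under 0.05.

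Other tools called other numbers of these lists. Limma on log2(FPKM + 1) tested 7537 genes, under a filter of FPKM 0.5 in 6 mice. Which list genes passed this filter is not given here. A limma count of 0 for a list, here and above, therefore cannot tell an untested gene from a tested one without a call. Limma called 0 of the receptor and coregulator list, the ATF4 list and, in the diet and age comparisons, the CREB3L3 targets. It thus made none of the edgeR calls of Ppard, Rxrg, Crebbp, Asns, Atf3, Apoa4 and Apcs, whether or not it tested these genes. Of the fasting list limma called 1 higher with diet in old mice and 0 in young mice or with age, without the calls of Igfbp1, Irs2 and G6pc. In fat oxidation it called 1 and 2 higher with diet in young and old mice and 2 and 0 lower with age on normal and high-fat diet, where DESeq2 called 3, 9, 11 and 3. Of the other PPAR alpha targets limma called 7 and 5 higher with diet in young and old mice and DESeq2 13 and 13, and with age on normal diet they called 2 and 8 lower. Of the paralogues and partners limma called 1 lower with diet in young mice, 2 higher and 1 lower in old mice, and 1 lower with age on normal diet.

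The relatives of the other genes given here passed no diet test. Pdk1 and Pdk2 differed by -0.21 and 0.28 with diet in young mice and by -0.24 and 0.10 in old mice, beside -1.27 and -0.86 for Pdk4, and Pdk3 was not tested. Vnn3 differed by 0.43 (adjusted p = 0.159) in young and 0.61 (adjusted p = 0.0613) in old mice, in the direction of Vnn1. Angptl6 and Angptl8 had adjusted p values of 0.406 and 0.934 in young mice and 0.28 and 0.506 in old mice. Creb3, Creb3l1 and Creb3l2 had 0.304, 0.741 and 0.498 in young and 0.155, 0.903 and 0.372 in old mice, and Creb3l4 was not tested. Aldh1a1, Aldh2 and Aldh3b1 had 0.652, 0.843 and 0.596 in young and 0.472, 0.39 and 0.128 in old mice, and Aldh3a1 was not tested.

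Whether the 9 genes moved together from mouse to mouse was asked after the mean of each group and batch had been removed from log2 CPM. Over 36 pairs in 24 mice, Pearson's r was positive for 29, with a median of 0.32, and 2 pairs passed a permutation test at a Benjamini-Hochberg adjusted p under 0.05. Fabp1 and Aldh3a2 had r = 0.855 (adjusted permutation p = 0.00252) and Spearman's rho = 0.807. Without the 2 mice farthest from the median r was 0.774, without OND replicate 4 it was 0.786, and within batches 1 and 2 it was 0.651 and 0.909. Vnn1 and Aldh3a2 had r = 0.711 (adjusted permutation p = 0.000360, from the smallest p that the 100000 permutations can give) and rho = 0.825. Here the values were 0.753 without the 2 farthest mice, 0.763 without OND replicate 4, and 0.878 and 0.668 within batches 1 and 2. Fgf21 and Fabp1 had r = 0.602 (adjusted permutation p = 0.261), which was 0.0823 without OND replicate 4. Within batch 1, which does not hold that library, r was 0.830, and within batch 2 it was 0.573. Pdk4 had its lowest r against Angptl4, at -0.416 (adjusted permutation p = 0.206).

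**Figure D4:**
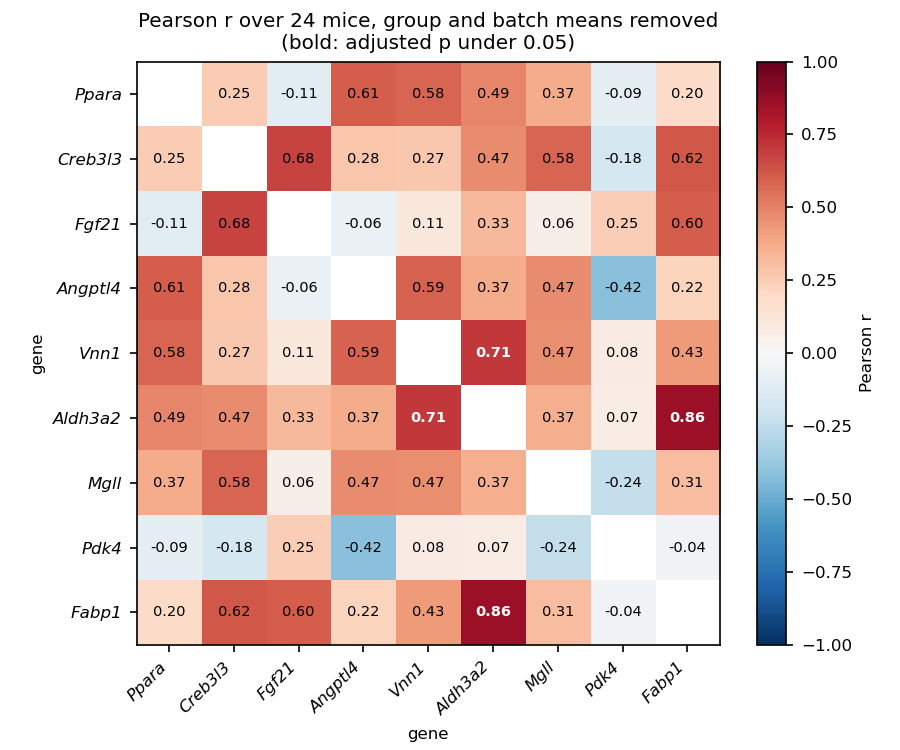
Pearson's r between the 9 genes over 24 mice (both axes list genes) after removal of group and batch means, from blue at -1 to red at 1. The bold cells are Aldh3a2 with Fabp1 (r = 0.855) and with Vnn1 (r = 0.711), and the row of Pdk4 runs from -0.416 with Angptl4 to 0.249 with Fgf21.

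The genes whose pattern over the 24 mice was most like that of Ppara, with group means kept and batch means removed, were Ttpa (r = 0.804), Fam210b (r = 0.801) and N4bp2 (r = 0.773). Among its own targets Aldh3a2 was the closest to it, at r = 0.626, and Pdk4 the farthest, at -0.146. The mean z score of the 8 targets was most closely followed by Pex11a (r = 0.940), Acot1 (r = 0.936) and Slc25a20 (r = 0.930), which are genes of the receptor's other target lists. Of the 8, Aldh3a2 and Creb3l3 had the highest r with this score, 0.922 and 0.908, and Pdk4 had -0.202, while Ppara, which is not part of it, had 0.600. The r with Ppara without OND replicate 4 were 0.804, 0.828 and 0.773 for the first 3 genes, of which Fam210b was then the closest and the others ranked 4 and 8. Those with the target score were 0.942 for Pex11a, 0.900 for Acot1 and 0.886 for Slc25a20, which then ranked 4. Ppara and the score then had 0.708, and Ppara and Aldh3a2 0.740. These r describe points that share group, library and depth.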

How the data were processed

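Isolated hepatocytes of 24 mice were profiled by polyA RNA-seq. The authors aligned reads with STAR 2.7.3a to mm10 and counted them per gene with HTSeq 0.11.2, which gave the deposited raw counts. The deposited FPKM were computed by the authors with CuffLinks and, by the table's name, adjusted between batches with ComBat. For 8 of the 9 genes, Fgf21 excepted, these FPKM follow the whole gene span rather than exon length. Strand and duplicate handling are not given in the sources used here.

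Groups, ages and batches came from the labels. Counts were fitted with edgeR 4.0.16 (R 4.3.3) with terms for group and the labelled batch over the 24 mice, TMM scaling, filterByExpr by group (13583 genes kept) and the quasi-likelihood F test, with Benjamini-Hochberg adjustment over all genes tested and a threshold of 0.05. Standard errors are the absolute log2 fold change divided by the square root of F. Log2 CPM used a prior count of 2. The p-values measure the spread between mice of a group. No 2 libraries agreed within sampling noise (smallest chi-square per degree of freedom 14.4). On simulated counts with 200 of 13583 genes changed, 58.2% of genes changed by 1 on the log2 scale and 90% of those changed by 2 were called for YHFD against YND, and 34.3% and 82% for the interaction.

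Alternatives were DESeq2 1.42.0, RLE scaling, no filter, no batch term, blocks by replicate number, the compared mice only, each batch alone, limma 3.58.1 on log2(FPKM + 1) and log2(FPKM + 0.1) with a filter of FPKM 0.5 in 6 mice and on log2(FPKM + 1) without it, and leaving out each mouse. The fit without OND replicate 4 was applied to the lists and to the likeness of patterns after seeing the data. The 9 genes and the lists were chosen with earlier results of these data known. From each list the text names the 3 called genes with the smallest adjusted p in each comparison and members of the 9 genes' families, and it names the 3 genes most like each pattern. Some genes that this rule would name are not reported here. Positions are from GENCODE M21 (GRCm38), in which 55154 of 55421 gene IDs were found, and start-site windows from RefSeq (GRCm38.p6). Correlations used Python 3.11.15 with scipy 1.17.1 and numpy 2.4.6, with permutations within group and batch.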

Additional observations from a re-analysis of the deposited data

Results flagged for a closer look

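OND replicate 4 stood far below the other 5 mice of its group for 2 of the 9 genes. Its log2 CPM was -0.69 for Fgf21, where the others lay between 1.21 and 1.91, and 9.47 for Fabp1, where the others lay between 10.9 and 11.4. In each case the gap to the next mouse, 0.73 and 0.74 of the group's range, exceeded the 95% critical value that Dixon's test sets for 6 samples. With 36 sets of 6 mice examined, chance is expected to single out about 1 in 20.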

How the results depend on the processing

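Vnn1 rose with diet in each fit that left out 1 mouse and lost its call only within single batches, in batch 1 for the young and in both for the old; the other calls depended on the processing, and the cause was not tested. In YHFD against YND the members called numbered 2 with DESeq2, RLE scaling or limma on log2(FPKM + 1), 3 with no filter, 4 with only the mice compared, 0 in batch 1, and 1 to 2 without 1 mouse. In OHFD against OND they numbered 4 with DESeq2 or no filter, 1 without the batch term, with only the mice compared or with limma without a filter, 0 in either batch, and 1 to 3 without 1 mouse. In OND against YND they numbered 3 with DESeq2 or no filter, 1 with RLE scaling, 0 without the batch term, with only the mice compared, in either batch and in all 3 limma fits, and 0 to 3 without 1 mouse. In OHFD against YHFD they numbered 1 with DESeq2, 2 with no filter and 0 to 1 without 1 mouse, and in OHFD against YND 1 with only the mice compared, in either batch and with limma, and 1 to 2 without 1 mouse. Over all genes, calls ranged over the alternatives other than leaving out 1 mouse from 9 to 2302, 15 to 1123, 2 to 2053, 0 to 1235 and 617 to 4675 in the same order, and from 0 to 587 for the interaction; without 1 mouse they ranged from 146 to 998, 84 to 823, 586 to 1592, 40 to 813 and 3314 to 4722, and from 0 to 1.

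The signs that turned were of values without a call, and those furthest from 0 after turning come first for OHFD against YND and the interaction. Angptl4 in OHFD against YND was 0.63 and Aldh3a2 -0.11 in batch 2, Fabp1 was 0.20 in batch 1, and Fgf21 was -0.49 with limma on log2(FPKM + 0.1). The interaction of Angptl4 was -0.46 without YND replicate 3, and those of Fgf21, Aldh3a2 and Mgll turned to no further from 0 than -0.17, without OHFD replicate 2. Fabp1 in YHFD against YND was -0.0551 in batch 2. Ppara in OHFD against OND was 0.0163 without the batch term, 0.0719 in batch 2 and between -0.15 and 0.12 without 1 mouse, and in OND against YND it was 0.0223 in batch 1. Pdk4 in OND against YND was 0.24 in batch 2, and in OHFD against YHFD it was 0.0227 with DESeq2, 0.0268 with RLE, 0.00654 with only the mice compared, 0.0219 in batch 1 and between -0.49 and 0.39 without 1 mouse. Vnn1 in OND against YND ran from -0.28 to 0.0200 without 1 mouse. The interaction was 0.10 for Vnn1 in batch 1 and -0.36 for Pdk4 in batch 2. Correlated pairs called numbered 5 on FPKM, 5 with batch means kept and 2 to 5 without 1 mouse.

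Replicate numbers are shared across groups, but same-numbered mice were different animals, and their deviations correlated at a mean r of 0.182 over 36 pairs, or -0.00199 with batch means also removed, so that the numbers do not pair them. With each replicate number taken as a block and no batch term, 1, 3, 2, 0 and 2 members were called in the order above. In OND against YND the Creb3l3 adjusted p became 0.0509 and that of Aldh3a2 0.0300, Ppara in OHFD against OND was 0.0243, and 10 correlated pairs were called. Low counts limit the precision of Fgf21.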
